A study of Homo sapiens with 8 samples.

Results

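The genes described here set the threshold for apoptosis: the anti-apoptotic members BCL2, BCL2L1, MCL1 and BCL2A1 of the BCL2 family, the caspase-8 regulator CFLAR, and the pro-apoptotic members BMF, BAD, BAX and BCL2L11. They were read on 2-colour arrays of L363, an established myeloma cell line, in which Cy5-labelled cDNA of cells given 12.5 µM MLN120B was set against Cy3-labelled cDNA of cells given the solvent DMSO alone. The compound blocks IKKβ, the kinase that starts the canonical NF-κB pathway. Cells were treated at 37 °C for 8 h (2 arrays), 12 h (3 arrays) or 24 h (3 arrays), and every array carried its own DMSO channel. Members were the array features, spots of one probe, that the platform's annotation assigns to one of the 9 genes and that had values on 6 or more of the 8 arrays. Of 31 annotated features 25 met this rule, out of 8794 such features fitted in all. They covered 8 genes, with 17 features of anti-apoptotic and 8 of pro-apoptotic genes, since no feature was annotated to BCL2L11, the gene of the BH3-only protein BIM.

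Values are log2 ratios centred on the median of each array, likely MLN120B over DMSO, so that a negative value means lower with the inhibitor. The direction rests on the dye labels and the usual order of the channels, and it is not stated. The dyes ran the same way on all 8 arrays, and a dye effect and the treatment cannot be told apart. In a bulk sample a lower ratio also cannot tell fewer cells that express a gene from less RNA per cell. Whether the samples of one time were separate cultures is not stated in the labels, so each p-value reflects only how these samples spread, which may be technical. All 8 plasma cell markers checked had a fitted feature, as did 2 of 3 T cell and 2 of 4 myeloid markers; a ratio within one line gives no level of a marker, so the cell type could not be checked further.

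The identifiers of the array database fall into 3 groups of close numbers, and the arrays of each group are called a run here. The identifiers of run 2 are close but not consecutive. Whether a run was a technical batch is not stated. The third samples of 12 h and 24 h make up run 1. The second sample of 8 h and the first samples of 12 h and 24 h make up run 2. Run 3 has the first sample of 8 h and the second samples of 12 h and 24 h. Run 2 stood apart. Its SDs over features were 1.42, 1.31 and 1.00, against 0.21 to 0.58 on the other 5 arrays, and it held values for 6344 to 10456 features, against 9868 to 13007. Of 15 missing values of the members, 11 lay on its arrays at 12 h and 24 h. Results are therefore given with and without run 2, and fits with the run as a block are among the alternatives.

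BCL2 family proteins decide whether the outer mitochondrial membrane is opened. BCL2, BCL-xL (the product of BCL2L1), MCL1 and A1 (the product of BCL2A1) hold back the pore-forming effectors BAX and BAK, and BH3-only proteins such as BIM, BMF and BAD bind the guardians and release that brake. CFLAR encodes c-FLIP, which blocks caspase-8 at death receptors. In lymphoid cells BCL2A1, BCL2L1 and CFLAR are textbook targets of NF-κB, and myeloma cells depend widely on MCL1.

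Averaged over the features of each gene, values lay below 0 on most arrays for BCL2 and CFLAR and for the pro-apoptotic BMF, BAD and BAX. Of these BAX was nearest to 0, with a mean of -0.17 over the 3 times. BCL2L1 and BCL2A1 averaged 0.11 and 0.086, and MCL1 was low on the arrays of run 2 alone. Single features differed: above 0 were BAX feature 1 on 5 of 8 arrays, BAD feature 3 on 4 of 7 and BCL2 feature 4 on 3 of 6. BCL2L1 feature 1 was below 0 on 6 of 8. In limma's test adjusted by Benjamini-Hochberg over all features, 0 of the 25 member features passed a threshold of 0.05, and 0 of all 8794 did (0%). At an unadjusted p under 0.05, 3 of 25 member features were lower, 1 each of BCL2, BAD and BMF, against 1.91% of all features; 0 of 25 were higher, against 1.38%. Without run 2, 0 of 25 passed after adjustment (0% of 8462 features), and 3 were lower at an unadjusted p under 0.05, 2 of BCL2 and 1 of BMF, against 2.42% of all, and 0 higher, against 2.1%. Features of one gene share the arrays and may read the same transcript, and they are not independent of each other.

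**Figure D1:**
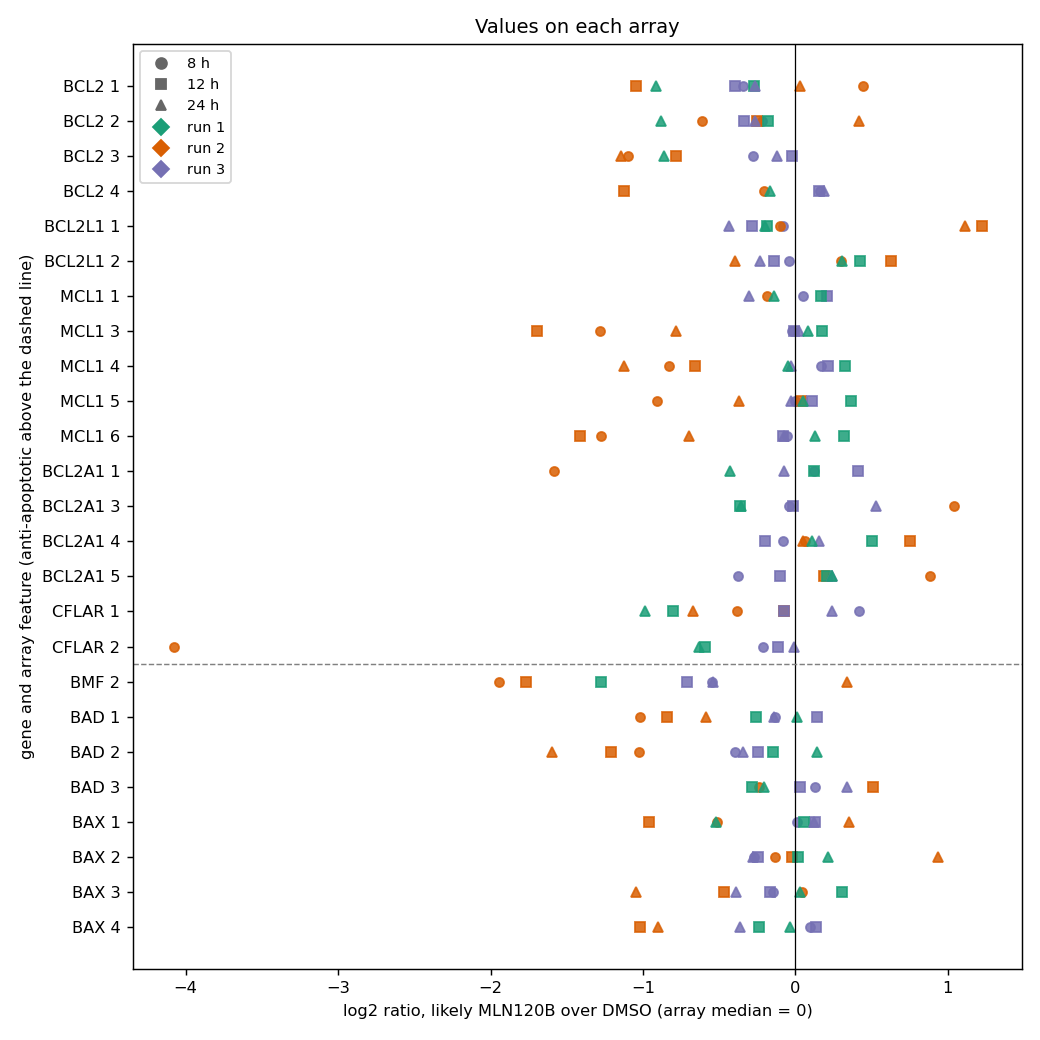
Log2 ratios (x axis, likely MLN120B over DMSO, array median at 0) of the 25 member features on each array, with 1 row per feature; shapes mark the time and colours the run. Points of run 2 spread widest, down to -4.08 for CFLAR feature 2, and BMF feature 2 lies below 0 on 6 of 7 arrays.

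BCL2 itself, the founding survival gene of the family, had 4 features with 6 or more values. Feature 1 was at -0.35 and 0.45 on samples 1 and 2 at 8 h, at -1.05, -0.40 and -0.27 on samples 1, 2 and 3 at 12 h, and at 0.032, -0.26 and -0.92 on samples 1, 2 and 3 at 24 h. It was below 0 on 6 of 8 arrays, and both exceptions belong to run 2. Feature 2 was at -0.22 and -0.61 at 8 h, at -0.25, -0.34 and -0.18 at 12 h, and at 0.42, -0.27 and -0.89 at 24 h, each in the order of the sample numbers. It lay below 0 on 7 of 8 arrays. Feature 3, with no value on sample 3 at 12 h, was at -0.28 and -1.10 at 8 h, at -0.78 and -0.025 at 12 h, and at -1.14, -0.12 and -0.86 at 24 h. All 7 of its values were below 0, a pattern that 2 of the 25 members and 1.34% of all features showed over their arrays; 0 of 25 members and 1.68% of all features were above 0 on every array.

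The fitted means of these BCL2 features were -0.30 ± 0.17, -0.31 ± 0.17 and -0.60 ± 0.20 (SE, n = 8, 8 and 7). Feature 3 had an unadjusted p of 0.0161 in limma's test and an adjusted p of 0.924. Without run 2 the means were -0.42 ± 0.14, -0.35 ± 0.14 and -0.26 ± 0.17, so that features 1 and 2 kept their size and feature 3 was smaller. Their unadjusted p in limma's fit was then 0.0154, 0.0326 and 0.165, and the adjusted p 0.96, 0.96 and 0.964. Feature 4, with 6 values, did not follow the others: it averaged -0.16 ± 0.21 over all arrays and 0.11 ± 0.15 without run 2. Averaged over its 4 features, BCL2 lay below 0 on 8 of 8 arrays, between -0.80 and -0.12, with a mean of -0.34 ± 0.14 (unadjusted p = 0.0371, adjusted p = 0.913 in limma's fit of gene averages). Below 0 on every array were 2 of the 8 member genes, BCL2 and BAD, and 1.12% of all gene averages and unnamed features; above 0 were 0 of 8 and 1.56%.

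BCL2L1, whose long product BCL-xL protects cells and whose short splice form promotes death, was read by 2 features. Which of these forms each feature reads is unknown. Feature 1 was at -0.081 and -0.10 at 8 h, at 1.22, -0.29 and -0.19 at 12 h, and at 1.11, -0.44 and -0.20 at 24 h. The values of sample 1 at 12 h and 24 h, both of run 2, lay above 1 while the other 6 lay below 0. Its mean was accordingly 0.11 ± 0.23 over all arrays and -0.21 ± 0.12 without run 2 (unadjusted p = 0.111, adjusted p = 0.96 in limma's fit). Feature 2 ran from -0.40 to 0.62 with a mean of 0.11 ± 0.15, and 4 of its 8 values were below 0. The features of this gene thus gave no common direction.

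MCL1, which encodes a short-lived guardian, was read by 5 features with 6 or more values. Feature 3 was at -0.024 and -1.28 at 8 h, at -1.69, -0.012 and 0.17 at 12 h, and at -0.79, 0.025 and 0.084 at 24 h. The 3 values of run 2 were thus the 3 lowest, and the other 5 ran from -0.024 to 0.175. Feature 6 repeated this pattern, with -1.27, -1.42 and -0.70 on the arrays of run 2 at 8 h, 12 h and 24 h and -0.082 to 0.32 elsewhere, and so did feature 4, with -0.83, -0.66 and -1.12 and -0.050 to 0.32 elsewhere. Feature 5 was at -0.91, 0.039 and -0.37 in run 2 and between -0.029 and 0.36 elsewhere, and feature 1, with a single value in run 2, ran from -0.30 to 0.21.

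Fitted means for MCL1 features 3, 4, 5 and 6 were -0.46 ± 0.25, -0.26 ± 0.20, -0.14 ± 0.15 and -0.42 ± 0.23 (SE, n = 8), and without run 2 they were 0.037 ± 0.12, 0.13 ± 0.12, 0.080 ± 0.12 and 0.031 ± 0.13. The sign of MCL1 therefore rested on run 2. The smallest unadjusted p among its features was 0.0947 over all arrays, with an adjusted p of 0.924 in limma's fit. Feature 2, which fell short of 6 values, went the other way in run 2, with 2.49 at 12 h and 1.16 at 24 h, against -1.09 and -0.21 in run 1 at the same times.

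The pattern seen for MCL1, with every run 2 array that had a value below every other array, was counted over all features after the values were seen. Only features with at least 2 values in run 2 could count for it or for its reverse. BCL2A1 features 1 and 3, CFLAR feature 2 and MCL1 feature 1 had 1 value there and were left out. The pattern held for 7 of the 25 member features and for 11.7% of all features. The 7 were MCL1 features 3, 4 and 6, BCL2 feature 4, BAD features 1 and 2 and BAX feature 4. The reverse, run 2 above every other array, held for 0 of 25 members and for 8.7% of all. Below 0 on every array of runs 1 and 3 were 6 of 25 members, against 6.66% of all features: BCL2 features 1, 2 and 3, BCL2L1 feature 1, CFLAR feature 2 and BMF feature 2. Above 0 on all of these arrays were 0 of 25 members and 9.95% of all features.

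BCL2A1, which encodes the lymphoid guardian A1, had 4 features with 6 or more values, and they disagreed in sign. Feature 4 was at -0.084 and 0.060 at 8 h, at 0.75, -0.20 and 0.50 at 12 h, and at 0.050, 0.15 and 0.11 at 24 h. It was above 0 on 6 of 8 arrays, with a mean of 0.15 ± 0.15 (SE, n = 8), the only one of the 4 that stayed above 0 without run 2 (0.067 ± 0.14) after being above 0 with it. Feature 5 averaged 0.20 ± 0.18 and -0.027 ± 0.12 without run 2, feature 3 averaged 0.13 ± 0.22 and -0.048 ± 0.16, and feature 1 averaged -0.24 ± 0.24 and 0.046 ± 0.13. On sample 2 at 8 h, features 1, 3 and 5 were at -1.58, 1.04 and 0.88. The smallest unadjusted p of these features was 0.313 in limma's fit (adjusted p = 0.924), and averaged over features the gene was at 0.086 ± 0.12.

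CFLAR, the brake on caspase-8, had 2 features. Feature 1 was at 0.42 and -0.39 at 8 h, at -0.075, -0.076 and -0.80 at 12 h, and at -0.67, 0.24 and -0.99 at 24 h. It was below 0 on 6 of 8 arrays, and both values above 0 belong to run 3. Feature 2, with no value on sample 1 at 12 h or 24 h, was at -0.21 and -4.08 at 8 h, at -0.11 and -0.59 on samples 2 and 3 at 12 h, and at -0.012 and -0.64 on samples 2 and 3 at 24 h. All 6 of its values were below 0, and sample 2 at 8 h lay far below the rest.

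On sample 2 at 8 h the features of CFLAR differed by 3.69, against a difference of at most 0.63 on the other 5 arrays that held both. Fitted means were -0.26 ± 0.19 for feature 1 (SE, n = 8) and -0.94 ± 0.45 for feature 2 (n = 6), with unadjusted p of 0.201 and 0.0739 and adjusted p of 0.924 for both in limma's fit. Without run 2 they were -0.13 ± 0.20 and -0.30 ± 0.15 (unadjusted p = 0.532 and 0.0777, adjusted p = 0.972 and 0.96). At 8 h alone, feature 2 was at -2.15 ± 0.78 (unadjusted p = 0.0276, adjusted p = 1), and without sample 1 at that time it was a single value of -4.08. Its adjusted p was then 0.0139 in limma's fit, with the spread taken from the other times, and 1 of 24 member features and 1.28% of all 8198 features passed. With the run as a fixed block feature 2 was at -1.585 (adjusted p = 0.137 in limma's fit). Both features were lowest in the same run outside run 2: sample 3 at 12 h and 24 h, the arrays of run 1, gave -0.80 and -0.99 for feature 1 and -0.59 and -0.64 for feature 2.

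BMF, a BH3-only gene whose product binds the guardians and so promotes death, had the smallest p of all members over the 3 times. Its feature 2, with no value on sample 3 at 24 h, was at -0.55 and -1.95 at 8 h, at -1.77, -0.71 and -1.27 at 12 h, and at 0.34 and -0.54 on samples 1 and 2 at 24 h. It was below 0 on 6 of 7 arrays, the exception being the array of run 2 at 24 h, and all 5 values at 8 h and 12 h were -0.55 or lower. Its mean over the 3 times was -0.87 ± 0.23 (SE, n = 7; unadjusted p = 0.00522, adjusted p = 0.924 in limma's fit). Without run 2 it was -0.69, from 4 values that were all below 0, on 1, 2 and 1 arrays at 8 h, 12 h and 24 h.

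By time, BMF feature 2 was at -1.25 ± 0.42 at 8 h (n = 2), -1.25 ± 0.35 at 12 h (n = 3) and -0.10 ± 0.42 at 24 h (SE, n = 2). Unadjusted p in limma's fit was 0.0178, 0.00644 and 0.817, and adjusted p was 1, 0.914 and 1. The mean at 24 h joined values of opposite sign. Without run 2 it was at -0.55, -0.99 and -0.54 at the 3 times, from 1, 2 and 1 arrays. Within run 3, whose arrays cover all times, BMF was at -0.55 at 8 h, -0.71 at 12 h and -0.54 at 24 h. Feature 1 of BMF had 2 values only, -0.32 at 8 h and 0.88 at 24 h, both in run 2.

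**Figure D2:**
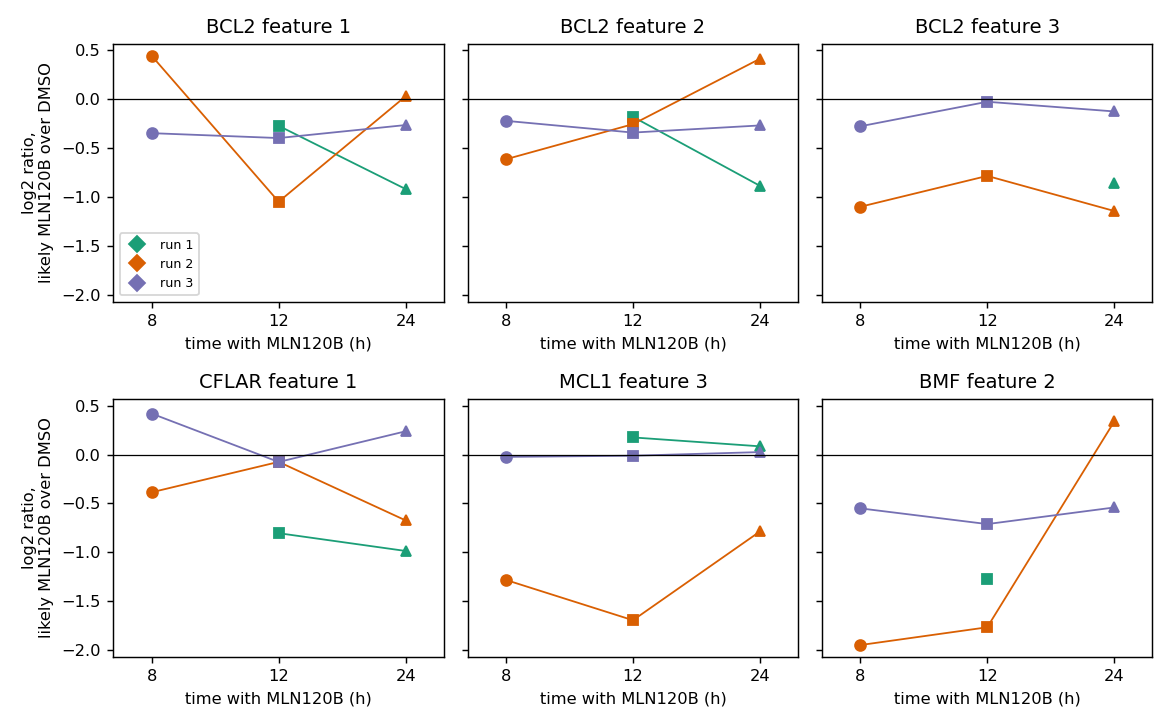
Log2 ratios (y axis, likely MLN120B over DMSO) of 6 member features at 8, 12 and 24 h (x axis), with lines joining arrays of the same run. BCL2 features 1 and 2 stay below 0 in runs 1 and 3, MCL1 feature 3 is low in run 2 alone, and BMF feature 2 is below 0 at 8 h and 12 h in every run measured.

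Promoter sequence is shown for CFLAR and BMF because they were the members whose RefSeq windows held a match to the NF-κB motif. Windows from 250 bases before to 50 after each listed start (GRCh38.p14) were found for 8 of the 9 genes, 14 windows in all, and were searched on both strands for the 10-base NF-κB consensus. A match lay in 2 of the 14 windows, 1 of 4 for CFLAR and 1 of 2 for BMF, against 11.3% of all 35116 windows. NFKBIA, the NF-κB target that encodes IκBα, is printed beside them. Sequences run 5′ to 3′ on the strand of the gene, and capitals mark the match.
CFLAR: cgcggggggcGGGGAATTCCgcagacagga
BMF: agctgtttgcGGGATGCCCCgagcaggcgt
NFKBIA: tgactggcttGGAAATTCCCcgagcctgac
The CFLAR stretch is at chr2:201118609-201118638 on the plus strand, and its match begins 97 bases before the start. The BMF stretch is at chr15:40108880-40108909 on the minus strand, with the match beginning 20 bases before the start. The NFKBIA stretch is at chr14:35404811-35404840 on the minus strand, where the match reads on the opposite strand and begins 81 bases before the start. All 3 lie upstream of the first exon of the listed transcript. A match is a description of letters and not a bound site, and the windows of BCL2, BCL2L1, BCL2A1, BAD, BAX and BCL2L11 held no such letters.

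BAD, a BH3-only gene whose product is switched off by survival kinases, had 3 features. Feature 2 was at -0.40 and -1.03 at 8 h, at -1.21, -0.25 and -0.15 at 12 h, and at -1.60, -0.34 and 0.14 at 24 h. It was below 0 on 7 of 8 arrays, and the 3 values of run 2 were the lowest. Feature 1 followed it, with -1.02, -0.84 and -0.59 in run 2 at 8 h, 12 h and 24 h and -0.26 to 0.14 elsewhere. Their means were -0.62 ± 0.22 and -0.38 ± 0.17 (SE, n = 8), with unadjusted p of 0.0213 and 0.0539 and adjusted p of 0.924 in limma's fit. Without run 2 they were -0.23 ± 0.13 and -0.086 ± 0.13 (unadjusted p = 0.108 and 0.51, adjusted p = 0.96 and 0.97). Feature 3, with 7 values from -0.29 to 0.51, averaged 0.030 ± 0.17. Averaged over features, BAD lay below 0 on 8 of 8 arrays at -0.36 ± 0.17 (unadjusted p = 0.0569, adjusted p = 0.913). These averages were -0.76, -0.515 and -1.09 in run 2 at 8 h, 12 h and 24 h. On the other arrays they lay between -0.23 and -0.017.

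BAX, the pore-forming effector, had feature means between -0.14 and -0.032 outside run 2. Its 4 features averaged -0.18 ± 0.18, 0.001 ± 0.16, -0.21 ± 0.17 and -0.24 ± 0.22 (SE, n = 8, 8, 8 and 7), and -0.032 ± 0.14, -0.14 ± 0.13, -0.085 ± 0.14 and -0.053 ± 0.13 without run 2. The smallest unadjusted p among them was 0.234 over all arrays, with an adjusted p of 0.924 in limma's fit. In run 2 the features of BAX parted: on sample 1 at 24 h they were at 0.35, 0.93, -1.05 and -0.90. On the 5 arrays of runs 1 and 3 they ranged from -0.52 to 0.31.

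**Figure D3:**
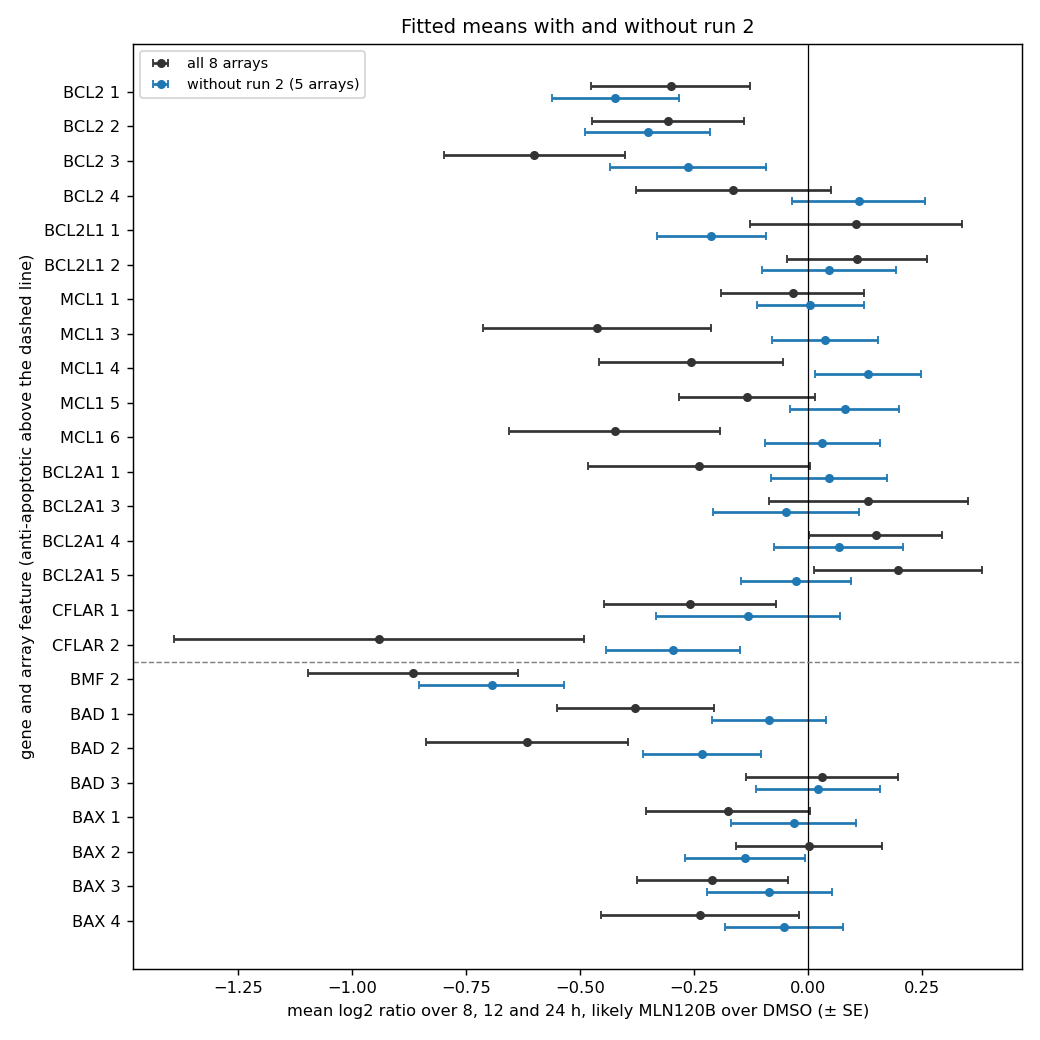
Mean log2 ratio over the 3 times with its SE (x axis, likely MLN120B over DMSO) for each member feature (rows), from all 8 arrays in black and from the 5 arrays outside run 2 in blue. CFLAR feature 2 is lowest over all arrays, at -0.94, and BMF feature 2 is lowest without run 2, at -0.69. MCL1 features 3 to 6 move from below 0 to between 0.031 and 0.13.

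Anti-apoptotic and pro-apoptotic members were set against each other by their medians. The median of the fitted means was -0.24 over the 17 anti-apoptotic features and -0.22 over the 8 pro-apoptotic features, a difference of -0.015, beside a median of -0.011 over all features. Of the 25 members 18 had a mean below 0, against 52% of all features. With 1 value per gene the difference was 0.059. Without run 2 the medians were 0.005 and -0.086, a difference of 0.090. No test was made of these medians, since the members were chosen with results of these data known.

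On single arrays, the median of the anti-apoptotic features was -0.043 and -0.39 on samples 1 and 2 at 8 h, -0.25, -0.076 and 0.17 on samples 1, 2 and 3 at 12 h, and -0.40, -0.032 and -0.16 on samples 1, 2 and 3 at 24 h. The median of the pro-apoptotic features was -0.14 and -0.51 at 8 h, -0.90, -0.067 and -0.19 at 12 h, and -0.59, -0.31 and 0.013 at 24 h. Both classes were lowest in run 2. The anti-apoptotic median exceeded the pro-apoptotic one on 6 of 8 arrays, by 0.19 ± 0.25 on average over the 8 (SD), so that the difference was smaller than its spread between arrays. It averaged 0.092, 0.32 and 0.12 in runs 1, 2 and 3, and 0.11 ± 0.22 over the 5 arrays of runs 1 and 3 together. Over features the contrast had no settled sign: by the medians of fitted means it was -0.015, and under 24 alternatives it ran from -0.062 to 0.215, above 0 in 14, below 0 in 9 and at 0 in 1. With 1 value per gene it was 0.059, and -0.001 to 0.154 under the alternatives, above 0 in 23 of 24. On single arrays that version was above 0 on 5 of 8, at 0.165 ± 0.24 on average (SD).

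**Figure D4:**
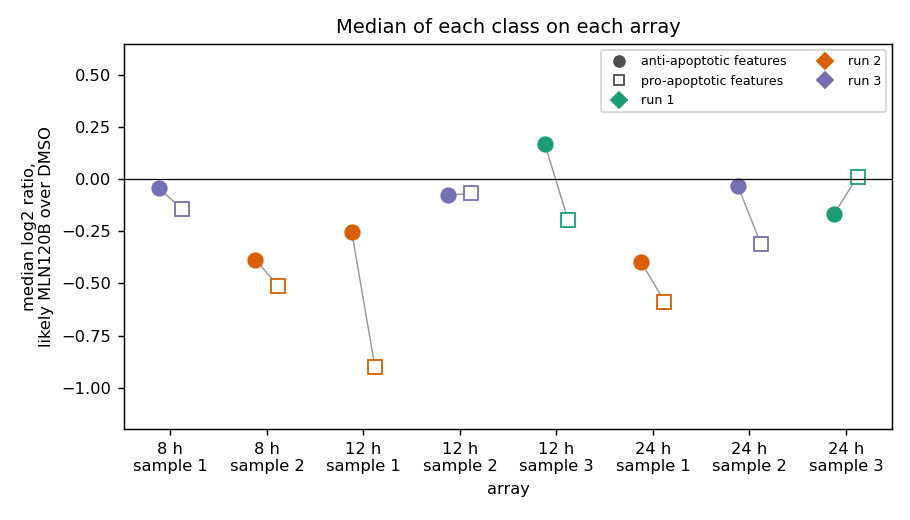
Median log2 ratio (y axis, likely MLN120B over DMSO) of the anti-apoptotic features (filled circles) and the pro-apoptotic features (open squares) on each array (x axis), coloured by run. The anti-apoptotic median is the higher one on 6 of 8 arrays, and both medians are lowest in run 2.

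Taken time by time, no member feature passed. At 8 h, 12 h and 24 h, 0 of 25 passed after adjustment in limma's fit, where 0.0227%, 0% and 0% of all features did. At an unadjusted p under 0.05, 2 of 25 were lower at 8 h (BMF feature 2 and CFLAR feature 2; 1.18% of all), 1 at 12 h (BMF feature 2; 2.04% of all) and 1 at 24 h (BCL2 feature 3; 1.75% of all), and 0 were higher at each time (1.07%, 1.48% and 0.534% of all). BCL2 feature 3 was at -0.69 ± 0.37, -0.40 ± 0.37 and -0.71 ± 0.30 at the 3 times (SE).

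For 24 h against 8 h and 24 h against 12 h, 0 of 25 member features passed after adjustment (0.0227% and 0% of all), and at an unadjusted p under 0.05 there were 0 lower (0.614% and 0.398% of all) and 0 higher (0.409% and 0.307% of all). For 12 h against 8 h, 0 of 25 passed (0.0227% of all), with 0 lower and 0 higher at the unadjusted level (0.762% and 0.591% of all). BMF feature 2 had the smallest p among members for both comparisons of 24 h. Its value was higher at 24 h than at 8 h by 1.15 ± 0.60 (SE; unadjusted p = 0.0901, adjusted p = 0.999 in limma's fit) and higher than at 12 h by 1.15 ± 0.55 (unadjusted p = 0.0674, adjusted p = 1). Without run 2 these differences were 0.009 and 0.45 (unadjusted p = 0.984 and 0.257, adjusted p = 1 for both in limma's fit). Both comparisons share the arrays at 24 h, where BMF feature 2 had 2 values, 0.34 in run 2 and -0.54 in run 3.

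The other apoptosis genes on the array had medians near 0, with as many or nearly as many genes below 0 as above. Of 14 further BCL2 family genes listed, 6 were measured, 3 with a mean below 0 and 3 above, with a median of -0.033. The largest sizes were those of PMAIP1, the BH3-only gene NOXA, at -0.17 ± 0.18, and of BAK1, the second pore-forming effector, at -0.17 ± 0.13 (SE, n = 8). Of 7 inhibitor of apoptosis genes 4 were measured, with a median of -0.025; BIRC5, the gene of survivin, was at -0.21 ± 0.17 and BIRC2, the gene of cIAP1, at -0.096 ± 0.14. The 4 inhibitor genes were split, 2 below 0 and 2 above.

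Genes of the death receptor pathway, which CFLAR restrains, had a median of 0.023 over 12 measured of 15, with 6 below 0 and 6 above. DEDD, which encodes a death effector domain protein, was at -0.57 ± 0.37 (SE, n = 8) and FAIM, an inhibitor of Fas-induced death, at 0.51 ± 0.35 (n = 7). Their most distant single values came from run 2, -2.98 at 24 h for DEDD and 3.11 at 12 h for FAIM. CASP8 itself was at 0.093 ± 0.18 with 6 values. Apoptosome and caspase genes had a median of 0.013 over 7 measured of 13, the largest sizes being those of CASP2 at -0.27 ± 0.21 (n = 6) and DFFA, the inhibitor of the apoptotic nuclease, at -0.21 ± 0.21 (n = 8). Of these 7 genes 3 were below 0 and 4 above. In limma's fit of gene averages 0 genes of these 4 lists passed after adjustment (0% of all 5961 rows), and at an unadjusted p under 0.05 there were 0 lower and 0 higher, against 1.64% and 1.51% of all rows. Of the 8 member genes 3 were lower at that level, BCL2, CFLAR at -0.60 ± 0.25 (unadjusted p = 0.04, adjusted p = 0.913) and BMF. The CFLAR mean includes -2.23 on sample 2 at 8 h, where its features were at -0.39 and -4.08. Neither feature was lower at that level by itself, and without run 2 they were at -0.13 and -0.30.

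Targets of NF-κB that serve as a check of the inhibitor lay below 0 on every array. NFKBIA averaged -0.92 ± 0.14 over the 3 times, TNFAIP3, the gene of the feedback regulator A20, -0.84 ± 0.19, and NFKB2, the gene of the p52 precursor, -0.998 ± 0.25 (SE, n = 8). Each was below 0 on 8 of 8 arrays, and NFKBIA had the smallest adjusted p of the 3, 0.515 in limma's fit of gene averages. BMF, at -0.87 ± 0.23, was of like size, and CFLAR and BCL2 lay at smaller values. By time, NFKBIA was at -0.42, -1.19 and -1.16 at 8 h, 12 h and 24 h, and BMF at -1.25, -1.25 and -0.10. Without run 2, NFKBIA was at -0.53, -1.12 and -1.24 and BMF at -0.55, -0.99 and -0.54.

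**Figure D5:**
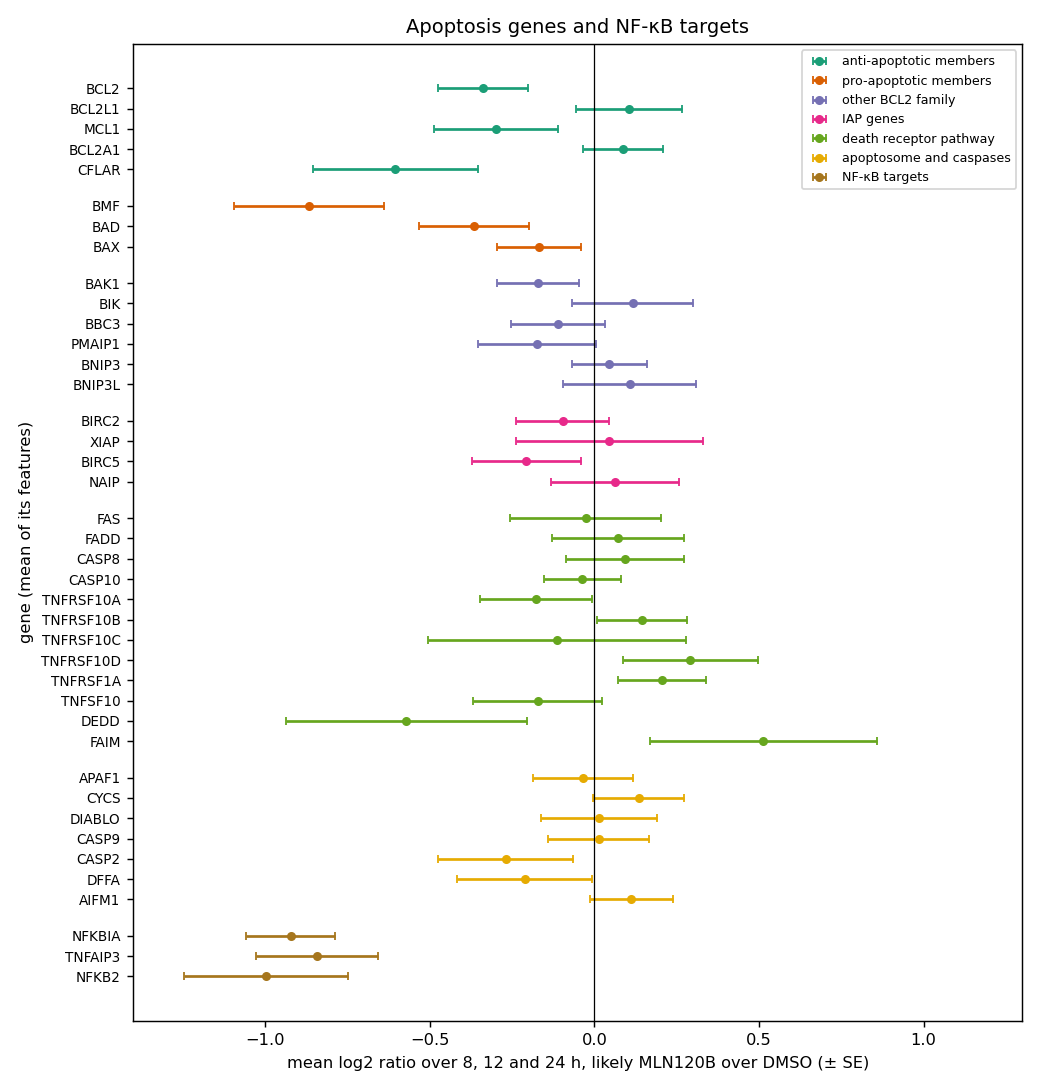
Mean log2 ratio over the 3 times with its SE (x axis, likely MLN120B over DMSO) of each measured apoptosis gene and of 3 NF-κB targets (rows), with features averaged per gene. The NF-κB targets lie between -0.998 and -0.84, BMF at -0.87 and CFLAR at -0.60, and the genes of the other lists between -0.57 and 0.51. The CFLAR mean includes -2.23 on sample 2 at 8 h.

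The named genes whose values over the arrays lay nearest to those of CFLAR were RABGAP1L (root mean square difference 0.25 over 6 shared arrays), COL6A1 (0.26 over 6) and CD2AP (0.265 over 8), where the median over 3462 genes was 1.005. Nearest to BMF were SAMD1 (0.42 over 7 shared arrays), PRKCD (0.53 over 6) and VPS41 (0.56 over 6), where the median over 3000 genes was 1.26. CD2AP, like CFLAR, was lowest on sample 2 at 8 h, at -2.60, where CFLAR averaged -2.23. SAMD1 was at -1.83 and -1.55 on the run 2 arrays of 8 h and 12 h, the arrays on which BMF was lowest. Arrays without a value did not count towards the difference. COL6A1 and PRKCD had no value on sample 2 at 8 h, where CFLAR and BMF were lowest. VPS41 had none on sample 1 at 12 h, where BMF was at -1.77.

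Of the 6 features with fewer than 6 values, 2 had 5. BCL2 feature 6 was at 0.15 and -0.48 at 8 h, 0.22 and -0.53 on samples 2 and 3 at 12 h, and 0.18 on sample 2 at 24 h. BCL2A1 feature 2 was at -0.070 and 0.29 at 8 h, 0.17 on sample 2 at 12 h, and 0.098 and 0.032 on samples 2 and 3 at 24 h. Just inside the limit, with 6 values, were BCL2 feature 4, BCL2A1 features 1 and 3, CFLAR feature 2 and MCL1 feature 1, whose means were -0.16, -0.24, 0.13, -0.94 and -0.034. BCL2 feature 7, with 3 values, ran from -0.12 to 0.007, and BCL2 feature 5 had 1 value, -1.91 on sample 3 at 24 h.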

How the data were processed

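The authors deposited 1 log2 ratio per feature and array. Base 2 was inferred: a size of 12.4 on 1 array is beyond any natural log ratio of a 16-bit scan, and the same base is assumed on the others. How the authors corrected background, filtered spots and normalized was not given in the sources used here. Spot intensities were not used here, signal over background is therefore unknown, and precision is limited by the number of arrays. Medians as deposited ran from -0.48 to 0.001, and each array was centred on its own.

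Of 15246 features, 10169 had 1 gene, 4 several and the rest none listed. Symbols were updated through Entrez identifiers (10128) or accessions (17) with RefSeq names of GRCh38.p14, and 24 were kept. All features of a gene carry the same accession and probe sequences were not used here, so which isoforms each feature reads is unknown. Features are numbered within a gene in the order of their identifiers.

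A mean per time was fitted to 8794 features with limma 3.58.1 in R 4.3.3 (lmFit, eBayes), with contrasts for the mean of the 3 times, each time and differences between times. The spread used for each feature also draws on that of all other features, the more so where a feature has few values. Features needed values on 6 or more arrays and at least 1 at each time. Tests are 2-sided against 0, with Benjamini-Hochberg adjustment over all features and a threshold of 0.05. The ratios hold the spread between DMSO cultures only if the arrays used separate DMSO samples, which is not known here. Gene averages over such features (5961 rows with unnamed features) were fitted alike for the lists. The fit was tested on simulated data. Python 3.11.15, pandas 2.3.3 and matplotlib 3.10.9 made the tables and plots.

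Members, lists and alternatives were chosen with earlier results of these data known. Named were all member features, NFKBIA, TNFAIP3 and NFKB2, the 2 genes with the largest mean of each other list, and the 3 genes nearest to CFLAR and to BMF; CASP8 was named after its value was seen. The alternatives tried were no centring, quantile or scale normalization, other filters on missing values, gene averages, sample number or run as a block, 1 mean per run, array weights, robust variances, each run left out and each array left out.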

Additional observations from a re-analysis of the deposited data

How the results depend on the processing

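Under the 24 alternatives, 0 of 557 refitted means of member features over the 3 times passed after adjustment (smallest adjusted p = 0.0514, CFLAR feature 2 without sample 1 at 8 h), and 12 of the 25 features kept their sign in all. Member features called at 8 h numbered 0 to 1 when 1 array was left out, and 0 under every other setting and contrast. The cause of the changes below was not tested. Over all features, calls for the mean of the 3 times numbered 0 here and up to 41, at 8 h 2 and up to 105, and for 24 h against 8 h 2 and up to 56, each highest without sample 1 at 8 h, which leaves 1 array at that time; quantile normalization gave up to 6 at 24 h, and at 12 h and for 24 h against 12 h up to 2 were called.

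Without run 2 the anti-apoptotic median was 0.005, and the sign turned for BCL2 feature 4 (0.11), BCL2A1 features 1 (0.046), 3 (-0.048) and 5 (-0.027), BCL2L1 feature 1 (-0.21), MCL1 features 1 (0.005), 3 (0.037), 4 (0.13), 5 (0.080) and 6 (0.031) and BAX feature 2 (-0.14). On the values as deposited it turned for BCL2L1 features 1 (-0.024) and 2 (-0.022), BAD feature 3 (-0.046) and BAX feature 2 (-0.13). With quantile normalization it turned for BCL2 feature 4 (0.014), BCL2L1 feature 1 (-0.15) and BAX feature 2 (-0.16), and with scale normalization for the same features (0.024, -0.115 and -0.13). With array weights it turned for BCL2 feature 4 (0.017), BCL2L1 feature 1 (-0.18), BAD feature 3 (-0.011) and BAX feature 2 (-0.12), without run 1 for BAX feature 2 (-0.003), and without run 3 for BAD feature 3 (-0.11).

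Leaving out 1 array at a time gave -0.38 to 0.049 for BCL2 feature 4, -0.52 to 0.046, -0.048 to 0.31 and -0.012 to 0.41 for BCL2A1 features 1, 3 and 5, -0.057 to 0.20 for BCL2L1 feature 1, -0.072 to 0.005 and -0.29 to 0.016 for MCL1 features 1 and 5, -0.060 to 0.12 for BAD feature 3 and -0.106 to 0.096 for BAX feature 2.

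Sample numbers went with the runs at 12 h and 24 h but not at 8 h. Deviations from the time means were correlated across features. Same-numbered arrays gave -0.35 to 0.31 (7 pairs), over 0.1 in 3. Those 3 joined 12 h with 24 h within a run, at 0.193, 0.309 and 0.245 for samples 1, 2 and 3. The main fit of 24 h against 12 h did not pair them. Every negative value involved 8 h, where 2 arrays deviate from their mean by opposite amounts. These values mirror same-run pairs and cannot decide whether numbers pair the 8 h arrays. Sharing a run gave 0.17 to 0.35 (7 pairs). With sample number as a replicate block 0 member features passed, and the sign turned for BCL2A1 features 1 (0.046) and 3 (-0.048) and MCL1 feature 1 (0.005). CFLAR feature 2, with 1 value in run 2 (-4.08), was at -0.296 with that block, against -0.94 in the main fit. With the run as a fixed block 0 member features passed and 8 did over all features for the mean of the 3 times. CFLAR feature 2 was then at -1.585, BCL2A1 features 1 and 3 at -0.52 and 0.31, and MCL1 feature 1 at -0.072, each over 1.5 times its size without the block. With 1 mean per run CFLAR feature 2 was at -1.60, and with the run as a random block at -1.12 (adjusted p = 0.973 and 1 in limma's fits).

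The anti-apoptotic minus pro-apoptotic median, -0.015 here, was 0.064 without centring, 0.12 and 0.069 with quantile and scale normalization, 0.040 and 0.037 with the run as a fixed block and with 1 mean per run, 0.215 without run 1, 0.090 without run 2 and 0.028 without run 3. With 1 value per gene it was above 0 in 23 of 24 alternatives.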
